A study of Homo sapiens with 16 samples.

Results

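The ID genes and a set of SMAD feedback and target genes were followed through 6 RNA-seq libraries of HCT116, a long-used cell line from a human colorectal carcinoma. The set was given by symbol and held 10 genes (ID1, ID2, ID3, ID4, SMAD3, SMAD6, SMAD7, MSX1, MSX2 and BAMBI) of 28502 symbols listed. It was chosen because ID2 and MSX2 were lower and SMAD3 higher with tumour necrosis factor (TNF), so the comparison of TNF with vehicle is given for these genes as a description without a test. Cells were transfected with siRNA to EZH1 (siEZH1), with siRNA to UXT (siUXT) or as the group NC, an abbreviation the labels leave unexplained and which served as the reference. Each then had TNF or phosphate-buffered saline (PBS). EZH1 is a histone H3 lysine 27 methyltransferase, and UXT is a prefoldin-like cofactor of transcription. Each of the 6 combinations had 1 library. The labels state neither the siRNA sequences nor the TNF dose and times, nor whether a group's PBS and TNF cells were transfected separately; the word transfection below stands for such a pair. The 10 chromatin samples of the series were not analysed here.

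Bone morphogenetic proteins (BMPs) signal through serine/threonine kinase receptors to SMAD1, SMAD5 and SMAD9, and TGF-beta and activin signal to SMAD2 and SMAD3; both groups need SMAD4. ID1 to ID4 and the homeobox genes MSX1 and MSX2 are classical BMP target genes, and SMAD6, SMAD7 and BAMBI are induced inhibitors that close the feedback loop. ID proteins have a helix-loop-helix but no DNA-binding basic region, and they hold E proteins and other basic helix-loop-helix factors away from DNA; in intestinal epithelium ID1 to ID3 are known for high levels in proliferating progenitor cells. HCT116 cells are mismatch repair deficient and are known to carry inactivating mutations of TGFBR2, the type II TGF-beta receptor, which limits them as a model of TGF-beta itself, while BMP and activin receptors use other type II chains.

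The 250 bases before the RefSeq start of ID2, MSX2 and SMAD3 are printed because these genes had the clearest differences with TNF. They come from RefSeq (GRCh38.p14, plus strand), whereas the reads were aligned to hg19, and all 10 genes matched an entry. The ID2 window is chr2:8681806-8682055, the MSX2 window chr5:174724332-174724581 and the SMAD3 window chr15:67065352-67065601, the first of 5 starts listed for SMAD3. Which start was in use is not shown by a value per gene. Capitals mark matches, on either strand, to the BMP-responsive GC element (GGCGCC), the SMAD-binding element (CAGAC), the AP-1 element (TGANTCA) or the NF-kB consensus.
ID2: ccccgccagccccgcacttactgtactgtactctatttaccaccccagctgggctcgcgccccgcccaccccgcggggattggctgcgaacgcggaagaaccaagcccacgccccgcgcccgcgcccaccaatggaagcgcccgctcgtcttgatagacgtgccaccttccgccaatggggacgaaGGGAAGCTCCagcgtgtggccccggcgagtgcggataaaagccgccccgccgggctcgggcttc
MSX2: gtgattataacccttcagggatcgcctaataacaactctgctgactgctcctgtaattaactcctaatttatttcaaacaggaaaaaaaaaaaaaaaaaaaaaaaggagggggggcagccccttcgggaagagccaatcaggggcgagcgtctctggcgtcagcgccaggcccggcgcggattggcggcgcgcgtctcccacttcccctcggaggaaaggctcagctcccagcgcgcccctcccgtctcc
SMAD3: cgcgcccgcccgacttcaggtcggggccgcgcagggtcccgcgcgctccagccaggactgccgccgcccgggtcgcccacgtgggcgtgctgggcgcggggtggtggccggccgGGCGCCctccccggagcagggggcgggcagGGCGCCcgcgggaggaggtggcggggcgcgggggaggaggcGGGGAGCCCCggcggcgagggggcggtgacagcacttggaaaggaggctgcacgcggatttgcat
The ID2 window held 1 match to the NF-kB consensus, which began 64 bases before the start. The SMAD3 window held 1 as well, which began 65 bases before the start, and 2 matches to GGCGCC, none overlapping another. The MSX2 window held no match to any of the 4. Of the first windows of the 10 genes, 3 (ID2, SMAD3 and MSX1) matched the NF-kB consensus, against 9.95% of 34943 windows of this length. Those windows cover all listed starts, not first starts only, and were not matched for GC content, so these shares are no test. GC content was 69.2% for ID2, 80.8% for SMAD3 and 74% for MSX1. For GGCGCC the matches were SMAD3 and BAMBI, against 16.4% of windows, and for CAGAC they were ID3, ID4, SMAD7 and BAMBI, against 38% of windows. None of the 10 first windows held TGANTCA, which 6.59% of windows held, but the third SMAD3 window did. A match is only a run of letters here, and binding was not measured.

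Expression was given as FPKM, fragments normalised to transcript length and sequencing depth, without read counts. From the spacing of low values, relative to NC PBS, NC TNF had a depth of 0.718, siEZH1 TNF of 0.720 and the others of 0.949 to 1.02. Of all symbols, 11845 loci averaged 1 FPKM or more and were tested, and of the 10 genes only ID4 lay below that level. UXT was at 0.445 and 0.412 of its NC level in siUXT under PBS and TNF, and EZH1 at 0.742 and 0.809 of its NC level in siEZH1. NFKBIA, TNFAIP3 and IL8, all NF-kB targets, were at least 10.9-fold higher with TNF in each transfection. Of 7 colon epithelial markers, EPCAM, KRT8, KRT18, KRT19 (in a locus shared with JUP) and CDH1 were present, and VIL1 and CDH17 were at or near 0 (means of 0.0151 and 0.0235 FPKM). Of the markers of other cell types, PTPRC and CD3E were at 0, COL1A2, PECAM1 and VWF were at or under a mean of 0.126 FPKM, and the stromal gene COL1A1 was at 5.91, 5.04 and 7.74 FPKM with PBS and 7.77, 7.02 and 8.26 with TNF in NC, siEZH1 and siUXT. COL1A1 was thus higher with TNF in each pair, and its part in the results was not tested. The siUXT PBS library stood apart from the other 5 for many genes, among them EPCAM at 58.7 FPKM against 102 to 154 elsewhere, so results are also given without it.

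Levels differed widely among the 10 genes. Means over the 6 libraries ran from 269 FPKM for ID1 (SD 70.9, n = 6) through 135 for ID3, 60.5 for ID2, 58.9 for MSX1, 23.1 for SMAD3, 10.8 for MSX2, 6.71 for BAMBI, 4.54 for SMAD7 and 1.80 for SMAD6 to 0.354 for ID4. Neighbours kept this order in all 6 libraries except at 2 places: ID2 was above MSX1 in only 3 libraries, and SMAD3 above MSX2 in 4. The ID family thus consisted of ID1, ID3 and ID2, with ID4 contributing at most 0.165% of the summed ID level. The inhibitory genes SMAD6, SMAD7 and BAMBI were all under 10 FPKM.

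**Figure D1:**
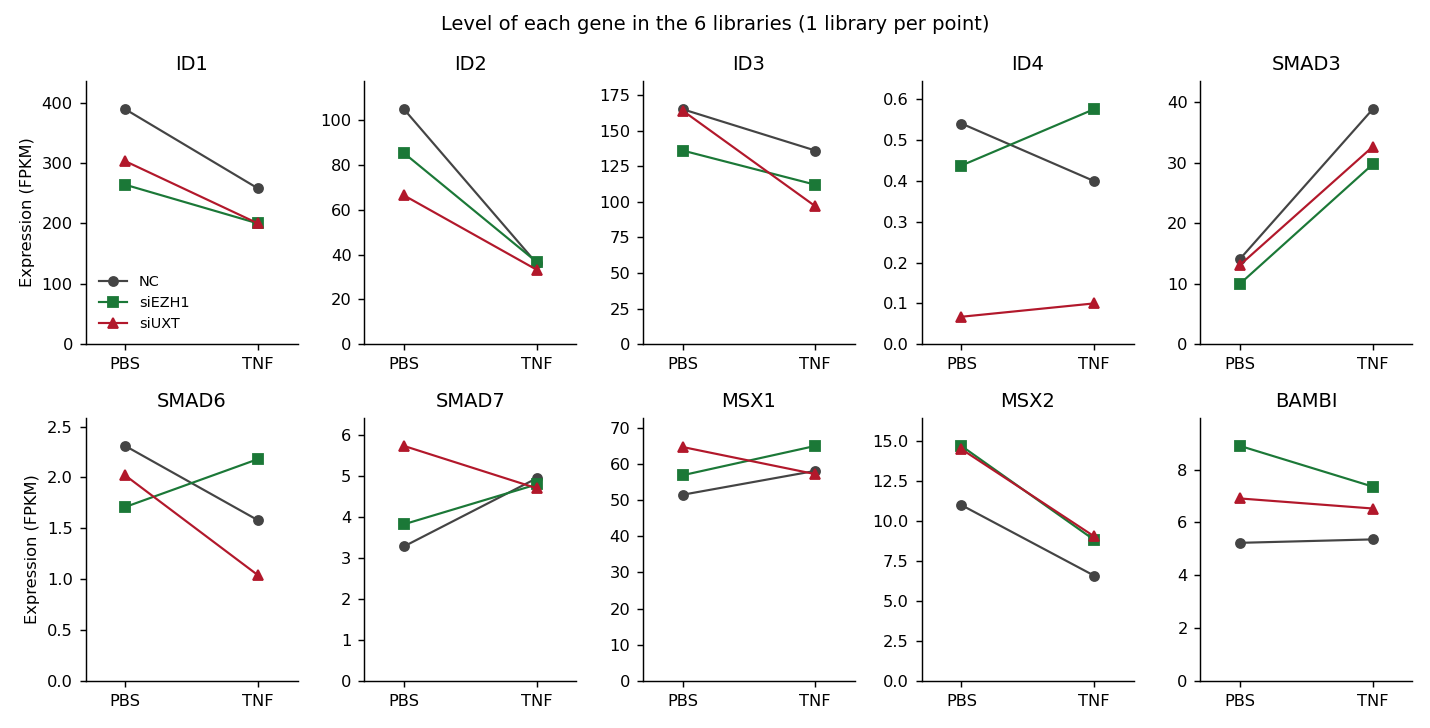
Expression in FPKM (vertical axis, from 0) of each of the 10 genes in the PBS and TNF libraries; each point is 1 library, and lines join the libraries of 1 transfection. ID1, ID2 and MSX2 lay lower and SMAD3 higher in all 3 TNF libraries than in any PBS library, while the lines of SMAD6, SMAD7, MSX1 and BAMBI ran in different directions.

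ID1, ID2 and ID3, the inhibitors of basic helix-loop-helix factors, were lower with TNF in all 3 transfections, and ID2 differed most. ID2 was at 105, 85.4 and 66.5 FPKM in the PBS libraries of NC, siEZH1 and siUXT and at 36.2, 36.8 and 33.3 FPKM in their TNF libraries. The PBS levels were spread (SD 19.1, n = 3) and the TNF levels lay close together (SD 1.91, n = 3), with no overlap between the groups. In bulk RNA, fewer cells expressing a gene and less RNA per cell cannot be told apart. The ratio of TNF to PBS was 0.346, 0.432 and 0.501 in NC, siEZH1 and siUXT, and the mean difference was -1.22 ± 0.27 (SD, n = 3 transfections) on the log2(FPKM + 1) scale, or -1.35 without the siUXT pair.

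ID1, the most abundant member, was at 389, 264 and 303 FPKM with PBS and at 258, 200 and 200 with TNF in NC, siEZH1 and siUXT. The groups did not overlap, although the highest TNF level (258, in NC) was close to the lowest PBS level (264, in siEZH1), and the mean log2 difference was -0.53 ± 0.11 (SD, n = 3). ID3 was at 165, 136 and 164 FPKM with PBS and at 136, 112 and 96.9 with TNF, a mean log2 difference of -0.43 ± 0.27 (SD, n = 3). The ID3 groups overlapped at 136 FPKM, and the siUXT pair differed most (-0.75, against -0.28 in each of the other pairs); without it the mean was -0.28.

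The summed level of the 4 ID genes was 659, 486 and 534 FPKM with PBS and 430, 349 and 330 with TNF in NC, siEZH1 and siUXT. Because ID2 differed more than its paralogs, its share of that sum was 15.9%, 17.6% and 12.5% with PBS and 8.42%, 10.5% and 10.1% with TNF. The share was thus lower with TNF in every transfection, by less in siUXT, and ID1 made up 54.4% to 60.6% of the sum throughout.

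ID4, the family member most known from neural and mammary tissue, was barely expressed, at 0.541, 0.438 and 0.0673 FPKM with PBS and 0.4, 0.576 and 0.1 with TNF in NC, siEZH1 and siUXT. These values, corrected for relative depth, lay within 0.06 of 17, 14, 2, 9, 13 and 3 multiples of 1 step in that order. If a step is 1 fragment, ID4 in siUXT was at 0.124 of NC under PBS (95% interval 0.0139 to 0.522) and at 0.25 under TNF (0.0435 to 1), exact intervals that cover counting error only. The siUXT libraries were thus the 2 lowest for ID4, on very few fragments and 1 library per condition. ID4 lay below the level tested with limma.

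SMAD3, the TGF-beta and activin signal transducer, was the 1 gene of the set that was higher with TNF in every transfection. It was at 14.1, 10.0 and 13.1 FPKM in the PBS libraries of NC, siEZH1 and siUXT and at 38.8, 29.7 and 32.6 in the TNF libraries. The lowest TNF level was above the highest PBS level, the ratios were 2.75, 2.96 and 2.49, and the mean log2 difference was 1.38 ± 0.11 (SD, n = 3), or 1.44 without the siUXT pair. SMAD2, its closest paralog, which carries the same signals, was at 18.9, 23.0 and 15.5 FPKM with PBS and 18.0, 23.1 and 19.0 with TNF. The ratio of SMAD3 to SMAD2 went with SMAD3, at 0.748, 0.435 and 0.842 with PBS and 2.16, 1.28 and 1.71 with TNF, so that SMAD3 was below SMAD2 in the 3 PBS libraries and above it in the 3 TNF libraries.

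The inhibitory SMADs had no common direction. SMAD7, which blocks both TGF-beta and BMP receptors, was at 3.28, 3.82 and 5.73 FPKM with PBS and at 4.94, 4.79 and 4.70 with TNF in NC, siEZH1 and siUXT. It was higher with TNF in NC and siEZH1 (log2 differences 0.48 and 0.27) and lower in siUXT (-0.24), where the PBS library was the highest of the 6. SMAD6, which acts mainly on BMP signalling, was at 2.31, 1.71 and 2.02 FPKM with PBS and 1.58, 2.18 and 1.04 with TNF, with log2 differences of -0.36, 0.23 and -0.57. At such low levels the log2(FPKM + 1) scale understates a change. BAMBI, a pseudoreceptor without a kinase domain that damps BMP, activin and TGF-beta signals, was at 5.23, 8.90 and 6.91 FPKM with PBS and 5.36, 7.36 and 6.53 with TNF, and its groups overlapped.

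The homeobox paralogs MSX1 and MSX2 differed from each other. MSX2 was at 11, 14.7 and 14.5 FPKM with PBS and at 6.59, 8.83 and 9.05 with TNF in NC, siEZH1 and siUXT, with ratios of 0.597, 0.602 and 0.625. Its groups did not overlap, and its 3 log2 differences were the most alike of the set, with a mean of -0.65 ± 0.03 (SD, n = 3). MSX1 was at 51.5, 56.9 and 64.7 FPKM with PBS and at 58.1, 65.0 and 57.2 with TNF, a mean log2 difference of 0.06 ± 0.20. MSX1 was therefore 3.88 to 4.67 times as abundant as MSX2 with PBS and 6.33 to 8.81 times with TNF.

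**Figure D2:**
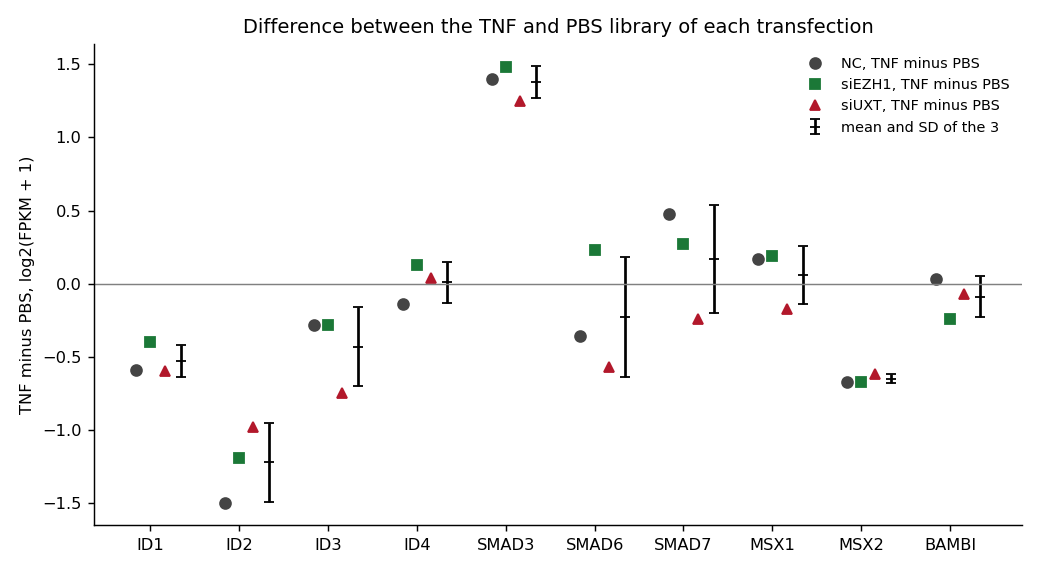
Difference between the TNF and the PBS library of each transfection on the log2(FPKM + 1) scale (vertical axis) for the 10 genes; symbols are single pairs of libraries, and the black bar is the mean and SD of the 3 pairs. ID2 lay lowest with a mean of -1.22 and SMAD3 highest with 1.38, and the 3 MSX2 pairs nearly coincided at -0.65.

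Of the 9 genes that averaged 1 FPKM or more, 4 (ID1, ID2, ID3 and MSX2) were lower with TNF in all 3 transfections, and 11.1% of all loci tested were. SMAD3 was higher in all 3, as were 9.08% of all loci. The 3 TNF libraries lay below the 3 PBS libraries for ID1, ID2 and MSX2, as for 3.04% of all loci, and above them for SMAD3, as for 3.47%. Counted on the log2(FPKM + 1) scale, ID2 and MSX2 were at least 1.5-fold lower in all 3 transfections, with 0.0422% of all loci. On the same scale SMAD3 was at least 1.5-fold higher, with 0.979%. That scale shrinks FPKM ratios, most at low levels, so a count on FPKM would hold more loci. For example, HES1 (below) had FPKM ratios of 0.652, 0.469 and 0.607 in NC, siEZH1 and siUXT and was not counted. The genes were chosen on this contrast, so these shares only describe them.

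In the rest of the pathway no locus was called for TNF over all 6 libraries. The list of other ligands, receptors, SMADs, regulators, targets and basic helix-loop-helix partners held 91 genes, of which 51 were tested. In limma's additive model of transfection and treatment, 0 of 51 passed a Benjamini-Hochberg adjusted p of 0.05 for TNF over all loci. An unadjusted limma p under 0.05 was found for 7 of the 51, and for 469 of 11845 loci. The list was chosen with earlier results of these data known, so these shares only describe it. Of all loci, 0.405% passed upward and 0.00844% downward. For NC, siEZH1 and siUXT in turn, the list had median log2 differences of -0.14, -0.03 and 0.07, against -0.02, 0.01 and -0.05 over all loci. Without the siUXT PBS library 5 loci passed, among them DLX2 and NEDD4L upward and BMP4 and HES1 downward; in that fit 2.47% of all loci passed upward and 0.295% downward. Leaving out siUXT TNF in its place called the same loci, because either omission takes the siUXT pair out of the TNF estimate. The fit over all 6 libraries called none of the 5.

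Among ligands, BMP4 was by far the most abundant, at 261, 279 and 344 FPKM with PBS and 193, 229 and 216 with TNF in NC, siEZH1 and siUXT. Its TNF libraries lay below its PBS libraries, as for 3.04% of all loci. Its log2 difference of -0.46 did not pass the test over 6 libraries (limma, Benjamini-Hochberg adjusted p = 0.60), and it was -0.36 without siUXT PBS. None of the 5 tested BMP and GDF loci or the 3 tested TGF-beta, activin and nodal loci was called. The next largest mean differences there were -0.24 for BMP8B and -0.15 for BMP8A, close paralogs whose reads may be split uncertainly, and 0.23 for TGFB1, with -0.13 for GDF11.

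No receptor or co-receptor of 11 tested, no extracellular antagonist of 4 and no signalling SMAD of 4 was called. RGMA, a BMP co-receptor, had a log2 difference of -0.46 and BMPR2 and ACVR1, a type II and a type I receptor, -0.21 and -0.19. FSTL3, which binds activin, had 0.33, the locus of NBL1, shared with MINOS1, 0.14 and TWSG1, a BMP-binding protein, 0.09. SMAD1, SMAD5 and SMAD2, the signal transducers beside SMAD3, had -0.15, 0.08 and 0.07. Of the 14 intracellular regulators NEDD4L, a ubiquitin ligase, had the largest difference at 0.48 (limma adjusted p = 0.96), or 0.59 without siUXT PBS. PPM1A at 0.25 and ZFYVE9 at -0.17 followed. The means of PPM1A, SMAD5, SMAD2 and TWSG1 were positive only through the siUXT pair (0.92, 0.83, 0.28 and 0.57). Without that pair they were -0.09, -0.30, -0.03 and -0.14.

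Other SMAD target genes went in both directions. ATOH8, a BMP-responsive gene, was at 2.47, 1.87 and 2.51 FPKM with PBS and 1.39, 1.22 and 0.994 with TNF in NC, siEZH1 and siUXT (log2 difference -0.57, limma adjusted p = 0.72). DLX2, a homeobox gene, was at 2.12, 2.0 and 3.09 FPKM with PBS and 5.45, 4.37 and 4.84 with TNF (0.80, adjusted p = 0.32). Neither the groups of ATOH8 nor those of DLX2 overlapped, but the TNF libraries also lay below the PBS libraries for 3.04% of all loci and above them for 3.47%. Of the factors that ID proteins bind, the E protein genes TCF3 and TCF12 had log2 differences of -0.01 and -0.08. HES1, a Notch target and helix-loop-helix repressor, was at 15.5, 15.3 and 15.4 FPKM with PBS and 10.1, 7.17 and 9.35 with TNF (-0.74, adjusted p = 0.31; 0.035 without siUXT PBS).

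**Figure D3:**
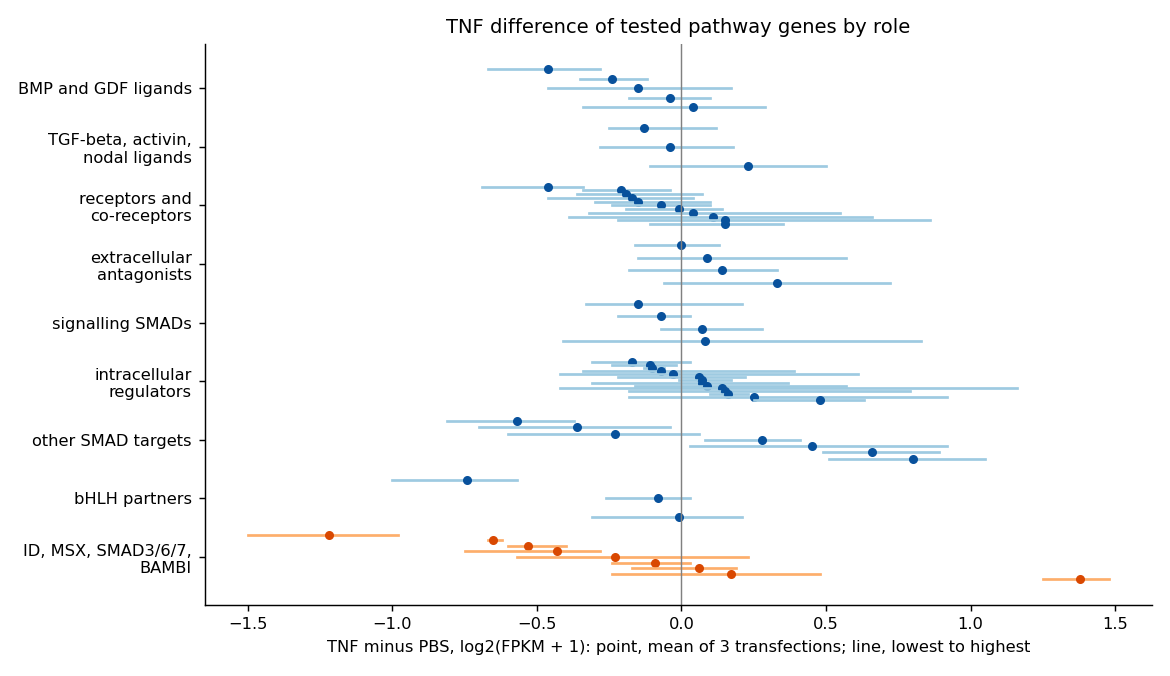
TNF minus PBS on the log2(FPKM + 1) scale (horizontal axis) for tested genes of each pathway role (rows); a point is the mean of the 3 transfections and a line runs from the lowest to the highest of them. The 9 tested genes of the set, in orange, held the lowest (ID2, -1.22) and the highest mean (SMAD3, 1.38), and the blue pathway genes lay between -0.74 (HES1) and 0.80 (DLX2). The set was chosen because ID2 was lower and SMAD3 higher with TNF, so their place at the ends is not a result.

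The loci whose 6-library profiles were nearest to 3 of the genes were found as the smallest root mean square distance of centred log2(FPKM + 1) values among 8172 protein-coding loci averaging 5 FPKM or more. For SMAD3 they were FOSL2, an AP-1 subunit gene, at a distance of 0.09, TICAM1, an innate immune adaptor gene, at 0.12 and DUSP5, a MAP kinase phosphatase gene, at 0.12. For MSX2 they were TOB1, an antiproliferative gene, at 0.11, HDAC8, a histone deacetylase gene, at 0.13 and the locus shared by AXIN2, a Wnt feedback gene, and CEP112 at 0.15. For ID2 the nearest were farther off: GATA2 at 0.25, ZIC2 at 0.29 and HES1 at 0.34, all transcription factor genes. FOSL2, for example, was at 8.83, 6.43 and 9.69 FPKM with PBS and 24.6, 18.5 and 20.9 with TNF in NC, siEZH1 and siUXT, lowest in siEZH1 in each treatment, as SMAD3 was.

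The genes were chosen on the TNF contrast and not on the siRNA contrasts, but both use the same 6 libraries. After siEZH1, ID1, ID3 and SMAD3 were lower and MSX1, MSX2 and BAMBI higher than NC under both treatments, as 37.7% and 40.7% of all loci were. ID1 in siEZH1 was at 0.680 of NC under PBS and 0.777 under TNF, SMAD3 at 0.711 and 0.765, and ID3 at 0.824 under each. BAMBI was at 1.70 and 1.37 times NC and MSX2 at 1.33 and 1.34 times. ID2 was lower under PBS (0.816) but not under TNF (1.02), where the 3 transfections had similar levels.

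None of these differences passed limma's test over all 6 libraries (0 of 9, Benjamini-Hochberg), while 0.0169% of all loci passed downward and 0% upward. An unadjusted p under 0.05 was found for 2 of the 9, and for 972 of 11845 loci. The 2 genes were ID1 with a log2 difference of -0.46 (SE 0.14, adjusted p = 0.60) and BAMBI with 0.53 (SE 0.20, adjusted p = 0.60). SMAD3 had -0.42 (SE 0.18), MSX2 0.38 (SE 0.18) and ID3 -0.28 (SE 0.18), with limma adjusted p values of 0.60, 0.60 and 0.65. In the fit without siUXT PBS, 5 of 9 passed (limma, Benjamini-Hochberg: ID1 0.011, SMAD3 0.017, ID3 0.023, BAMBI 0.027, MSX2 0.036), with the same log2 differences; in that fit 26.4% of all loci passed, and with 1 siUXT library left only NC and siEZH1 informed its error. Leaving out siUXT TNF gave the same 5 genes, with 26.1% of all loci.

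After siUXT, ID1, ID2, ID3, SMAD3 and SMAD6 were lower and MSX2 and BAMBI higher than NC under both treatments, as 17.1% and 22.8% of all loci were. ID1 was at 0.780 of NC under PBS and 0.775 under TNF, and MSX2 at 1.31 and 1.37 times NC. Others depended on the treatment: ID2 was at 0.635 under PBS and 0.918 under TNF, ID3 at 0.994 and 0.714, and SMAD7 at 1.75 and 0.95. MSX1 was at 1.26 times NC under PBS and 0.986 under TNF.

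In limma's test over 6 libraries 0 of 9 passed for siUXT, with 0.0253% of all loci passing upward and 0.0169% downward. Only ID1 of the 9 had an unadjusted p under 0.05 (log2 difference -0.36, SE 0.14, adjusted p = 0.91), against 432 of 11845 loci. ID2 had -0.38 (SE 0.19) and MSX2 0.38 (SE 0.18), each with a limma adjusted p of 0.91. The targets themselves did not pass in this fit: UXT had -1.19 for siUXT (limma adjusted p = 0.69) and EZH1 -0.30 for siEZH1 (0.64). A lack of calls for either siRNA therefore does not show that levels were equal. Without siUXT PBS again 0 of 9 passed, with 1.09% of all loci, and ID1, ID2, ID3 and MSX2 had -0.41, -0.20, -0.48 and 0.41. With siUXT PBS kept and siUXT TNF left out, 4 passed (limma, Benjamini-Hochberg: ID2 0.017, MSX1 0.033, SMAD7 0.042, ID1 0.047), as did 30.4% of all loci. Each of these fits takes the spread of the single remaining siUXT library from NC and siEZH1. Both siRNAs were compared with the same 2 NC libraries.

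Of the 51 other pathway loci, 0 passed limma's test over 6 libraries (Benjamini-Hochberg) for either siRNA. An unadjusted p under 0.05 was found for 1 with siEZH1 and 2 with siUXT, and for 972 and 432 of 11845 loci. The list's median log2 difference was 0.09 under PBS and 0.01 under TNF for siEZH1, against 0.00 and 0.02 over all loci. For siUXT it was -0.02 and 0.08, against 0.04 and 0.01.

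**Figure D4:**
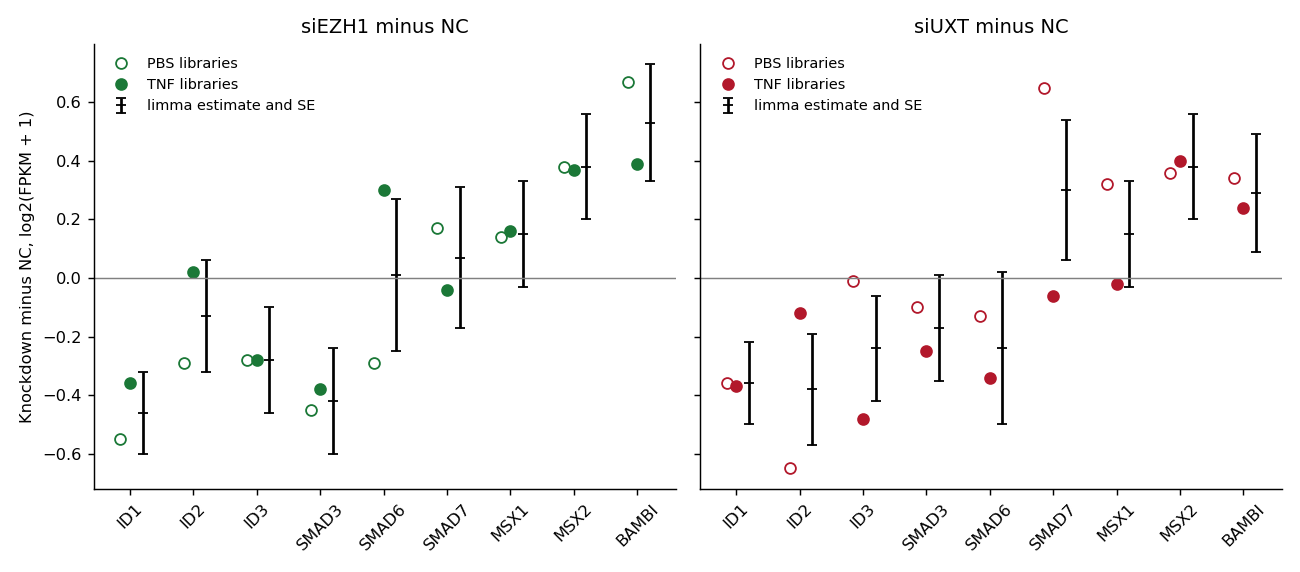
Knockdown minus NC on the log2(FPKM + 1) scale (vertical axis) for the 9 tested genes, siEZH1 at left and siUXT at right; open points are PBS pairs, filled points TNF pairs, and black bars limma's estimate with its SE over both. In siEZH1 the PBS and TNF points of ID3, MSX1 and MSX2 nearly coincided, and in siUXT the PBS and TNF points of ID2, ID3 and SMAD7 lay far apart.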

How the data were processed

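Poly(A) RNA was sequenced from 6 libraries, 1 per condition. The submitters' processing notes name FastQC, cutadapt, TopHat2, Bowtie and SICER and the build hg19, without versions or a program for the FPKM values. The authors deposited FPKM values per gene symbol; depth is known only as ratios between libraries (steps among values under 0.4 FPKM). Symbols sharing all 6 values count as 1 locus, and loci averaging 1 FPKM or more were tested on the log2(FPKM + 1) scale. limma 3.58.1 (R 4.3.3; lmFit and eBayes with trend) fitted transfection and treatment additively, which left 2 residual degrees of freedom; unequal TNF responses enter the error. P-values were Benjamini-Hochberg adjusted over 11845 loci with a threshold of 0.05. With 1 library per condition, they measure only the spread between these libraries, which may be technical. The fit was tested on simulated data only for TNF differences larger than any in the set. That run covered neither the siRNA contrasts nor unequal TNF responses. Alternatives were a pseudocount of 0.1, no filter, median-of-ratios size factors (1.00 to 1.05) and leaving out each library. The sources used here do not state strand use in counting, so overlapping or antisense genes are uncertain. The members, pathway lists and tests were chosen with earlier results of these data known. Besides the members, the text names of each pathway list the up to 3 tested genes with the largest mean TNF difference and any called gene, and for ID2, MSX2 and SMAD3 the 3 nearest profiles; some results under this rule are not reported here. Python 3.11.15 with pandas 2.3.3 and matplotlib 3.10.9 did the rest.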

Additional observations from a re-analysis of the deposited data

Results flagged for a closer look

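The 5 genes below had a TNF difference of opposite sign in NC and in a knockdown, each from 1 pair of libraries, and these differences were not tested. SMAD7 was higher with TNF in NC and lower in siUXT, a difference of -0.71 between the log2 responses. SMAD6 was lower with TNF in NC and higher in siEZH1 (0.59). MSX1 was higher with TNF in NC and lower in siUXT (-0.34). BAMBI was slightly higher in NC and lower in siEZH1 (-0.28) and siUXT (-0.10). ID4, at very low levels, was lower in NC and higher in siEZH1 (0.27) and siUXT (0.18).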

How the results depend on the processing

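The labels give no replicate numbers to pair by, and each condition had 1 library. PBS and TNF were paired only within a transfection, which is a term of the model in each fit. ID1, ID2, ID3 and MSX2 stayed lower and SMAD3 higher with TNF in every pair with size factors. The other runs could not change these signs. Leaving out a library only removes its pair, and the pseudocount and filter leave the sign of a pair as it was. With 1 library (and its pair) left out, the mean ran from -1.35 to -1.08 for ID2 and from -0.67 to -0.64 for MSX2. For SMAD3 it ran from 1.33 to 1.44. MSX2 was at -0.71 with a pseudocount of 0.1. Without either siUXT library the number of genes of the set higher in every pair was 3 in place of 1 (SMAD7 and MSX1 added), within a range of 1 to 3 over all libraries left out. Leaving out 1 library gave 0 to 5 called genes of the set for siEZH1 and 0 to 4 for siUXT, all of them without a siUXT library, and 0 to 5 (TNF), 0 to 11 (siEZH1) and 0 to 16 (siUXT) called pathway loci. Over all loci the 48 called up and 1 down for TNF became 23 and 0 without a filter, 0 down with a pseudocount of 0.1 or size factors, and 100 to 294 up and 24 to 35 down with 1 library left out. The 0 up and 2 down for siEZH1 became 14 to 1396 and 24 to 1750, and the 3 up and 2 down for siUXT became 21 to 1425 and 25 to 2179, or 0 and 0 with a pseudocount of 0.1. The largest of these came without a siUXT library. The cause was not tested. Low levels limit chiefly ID4 and SMAD6.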

Other observations

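Among pathway genes outside the set, 4 chosen after their values were seen were lower in the siUXT PBS library than in each of the other 5. TGFBR1, a type I TGF-beta receptor, was at 4.06 FPKM there and at 7.67 to 13.8 elsewhere. SMAD5, a BMP signal transducer, was at 5.13 FPKM against 8.56 to 12.6, and SKIL, a SMAD corepressor, at 0.481 against 1.26 to 2.26. WWP1, a ubiquitin ligase, was at 7.07 FPKM against 12.2 to 22.7. With siUXT TNF left out, so that siUXT PBS alone stood for siUXT, their log2 differences from NC were -0.98, -1.0, -1.01 and -1.10 in that order. Because the 4 genes were picked on that 1 library, no p-value is given for this fit. Over all 6 libraries none passed limma's test (Benjamini-Hochberg adjusted p of 0.91 to 0.92). Without siUXT PBS their log2 differences from NC were 0.08, 0.13, -0.05 and 0.44. Other pathway genes were highest in the siUXT PBS library. Among them were BMP4 at 344 FPKM against 193 to 279, ANGPTL4 at 12.3 against 4.32 to 7.79 and GDF11 at 6.71 against 3.14 to 5.50. The 4 genes therefore give no direction for the pathway, and the share of all loci lowest in that library was not counted.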
